A study of Mus musculus with 24 samples.

Results

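The EGF receptor system was followed through 9 genes, chosen by name from the 24411 genes counted in each liver. They were 5 ligands (Hbegf, Areg, Ereg, Tgfa and Btc), 3 receptors (Egfr, Erbb2 and Erbb3) and 1 inhibitor, Errfi1. The genes were chosen with earlier results of the same livers known, among which the lower Hbegf of LKO livers after acetaminophen was one. The difference between LKO and control livers after acetaminophen is therefore described below without a test.

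The ligands are made as membrane proteins and are cut from the cell surface by proteases, after which they bind EGFR and cause it to pair with itself or with ERBB2 or ERBB3. Active receptors signal through the RAS-ERK and PI3K-AKT arms, and ERRFI1 binds the kinase domain of EGFR and shuts it off. In liver, EGFR is abundant on hepatocytes, and its ligands are known for promoting hepatocyte division after injury or tissue loss. ERBB3 has little kinase activity of its own and carries docking sites for PI3K.

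Polyadenylated RNA from 24 mouse livers or pools of livers was sequenced. All mice were males of 2.5 months that carried loxP sites in both copies of E2f7 and E2f8 and had been fasted for 16 h. LKO mice also carried Alb-Cre, which is driven by the albumin promoter and removes both genes from the liver throughout life, and their controls were littermates without Cre. Both carried the R26R mTmG reporter on a mixed, mainly FVB background. In HKO mice the same alleles were removed at 2 months with AAV8-TBG-Cre, a virus whose promoter is active in hepatocytes. The NULL control mice received AAV8-TBG-Null. The paper shows the mTmG reporter in HKO livers and their controls as well, and gives no separate background for them. At 0 h, 14 untreated mice were sequenced singly (3 NULL, 3 HKO, 4 control and 4 LKO). At 12, 24, 48, 72 and 96 h after 300 mg/kg acetaminophen (APAP), a drug that at this dose injures hepatocytes around the central vein, 1 control and 1 LKO library were made, each pooled from 3 mice. The later libraries thus differ from those at 0 h in drug, time since fasting and pooling at once, and these cannot be told apart.

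Between 12665686 and 19499897 reads fell on genes in each library. The control pool at 12 h, on which the highest ligand levels below rest, had 13.6% of its reads on no feature, against 7.29% to 10.9% in the other 17 libraries of the LKO cohort. E2f8, 1 of the 2 deleted genes, had higher levels in HKO than in NULL livers (30.7 to 83.9 against 15.2 to 26.4 CPM) and levels of 17.7 to 34.2 CPM in LKO livers against 11.6 to 18.7 CPM in control livers at 0 h. E2f7 stayed at or below 4.33 CPM in every library. The deletion removes some exons alone, so these whole-gene counts do not check the labels. Levels are given as CPM, counts scaled by TMM to a common library size of 1000000, and 3 counts corresponded to 0.154 to 0.237 CPM. Summed levels of 6 hepatocyte markers were 45678 to 126169 CPM, and each of the 6 was detected in all 24 libraries. Fewer cells of a type and less RNA per cell cannot be told apart in whole liver.

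Of the ligand genes, Ereg, Areg and Btc lay in 1 cluster with Epgn on chromosome 5 (GRCm38, chr5:91027464-91402994, 376 kb). Tgfa (chr6:86195223-86275719), Egfr (chr11:16752203-16918158), Erbb2 (chr11:98412470-98437716), Erbb3 (chr10:128567523-128589652) and Errfi1 (chr4:150853919-150868892) lay elsewhere, and Hbegf is placed below. On the opposite strand, Mien1 overlaps Erbb2 and 1700045H11Rik overlaps Errfi1, and the counts did not use strand. Promoters of 6 of the 9 genes (7 start sites) were matched in RefSeq on GRCm38.p6 and searched on both strands from 250 bases before to 50 bases after the start for 5 motifs. The CRE (TGACGTCA), the letters that CREB-family factors bind, occurred in Areg (first base at -61) and at the second start of Errfi1 (-51), and 1.79% of 32851 promoters hold it. The AP-1 letters (TGANTCA, 7.81% of promoters), the antioxidant element (TGACNNNGC, 12.4%) and the E2F letters (TTTCCCGC, TTTGGCGC, TTTCGCGC or TTTGCCGC, 2.26%) occurred in none of the 7. TEAD letters (GGAATG, 14.7%) occurred in Erbb2 (-88) and at the first start of Errfi1 (-65). No pair of these motifs overlapped in the promoters matched. The 150 bases before the start are shown for Areg and Btc, the chromosome 5 ligands that rose most after APAP. They are also shown for Errfi1 at its second start, which lies within the span of the gene given above. Capitals mark the CRE, and Btc held none of the 5 motifs.
Areg (chr5:91139449-91139598, plus strand): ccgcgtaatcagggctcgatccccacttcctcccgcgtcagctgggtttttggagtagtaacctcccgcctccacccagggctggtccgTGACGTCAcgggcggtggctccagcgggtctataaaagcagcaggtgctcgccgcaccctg
Errfi1 (chr4:150854920-150855069, plus strand): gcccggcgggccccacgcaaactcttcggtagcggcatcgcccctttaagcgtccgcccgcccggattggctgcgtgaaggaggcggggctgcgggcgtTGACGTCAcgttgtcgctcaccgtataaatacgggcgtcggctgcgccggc
Btc (chr5:91402995-91403144, minus strand): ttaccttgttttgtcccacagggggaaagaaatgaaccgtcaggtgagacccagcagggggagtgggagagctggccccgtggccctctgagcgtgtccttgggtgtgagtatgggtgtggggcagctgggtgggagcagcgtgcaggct

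At 0 h the members differed widely in level. Per kilobase of exon, Errfi1 was the highest, with a median of 517 CPM per kb over the 14 mice (397 to 728). Egfr followed with 36.7 (22.3 to 81.7), Erbb3 with 23.5 (10.8 to 31.4) and Tgfa with 3.64 (3.04 to 4.12). Errfi1, Egfr and Tgfa were thus separated from each other without overlap, whereas the ranges of Egfr and Erbb3 overlapped. Btc (0.443 CPM per kb), Erbb2 (0.344), Hbegf (0.173) and Ereg (0.0946) were low, with ranges that overlapped between neighbours. Areg, with a median of 0, was detected in 5 of the 14 mice and never with more than 4 counts.

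To find whether these genes differed before injury, HKO livers were compared with NULL livers and LKO livers with control livers at 0 h. By the paper, LKO livers hold mostly diploid hepatocytes, whereas HKO livers stay mainly polyploid like their controls. Gene loss and ploidy thus cannot be told apart in LKO livers. In HKO livers, 119 of 12397 genes tested were called (adjusted p-value under 0.05 in edgeR's quasi-likelihood test and a fold change of at least 1.5), which is 0.96%. The number was 324 with DESeq2, 255 without the filter on low counts and 54 to 297 when a mouse was left out. Of the 9 members, 7 passed the filter on low counts and 0 were called, and Areg and Ereg were too low to test.

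Btc, a ligand of EGFR and ERBB4, had 2.00, 2.01 and 1.10 CPM in NULL livers and 2.13, 2.63 and 3.91 CPM in HKO livers. All HKO mice lay above all NULL mice, with a log2 fold change of 0.77 (SE 0.37, adjusted p = 0.421). Erbb3 had 141, 156 and 165 CPM in NULL livers and 169, 187 and 189 CPM in HKO livers, again without overlap, and a log2 fold change of 0.25 (SE 0.099, adjusted p = 0.325). Separation in this direction was seen for 7.93% of all genes tested. Hbegf, which encodes heparin-binding EGF-like growth factor, had 0.187, 0.415 and 0.709 CPM in NULL livers and 1.82, 0.896 and 0.265 CPM in HKO livers. The groups overlapped, with a log2 fold change of 1.20 (SE 0.72, adjusted p = 0.559) that was 0.43 without the highest HKO mouse. Errfi1 was at 2268 ± 361 CPM in NULL and 1867 ± 152 CPM in HKO livers (SD, n = 3 each), with a log2 fold change of -0.27 (SE 0.14, adjusted p = 0.489). Tgfa (0.06), Egfr (0.07) and Erbb2 (0.20) had smaller log2 fold changes and overlapping groups.

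In LKO livers at 0 h, 0 of 12426 genes were called (0%), although 352 had an unadjusted p-value below 0.05 and DESeq2 called 3. The 7 members tested were likewise not called, and their adjusted p-values were all 0.999. Egfr had 386, 912, 925 and 285 CPM in control livers and 503, 253, 447 and 340 CPM in LKO livers. A pair of control mice had over 900 CPM and the other pair lay within the LKO range, so the groups overlapped, with a log2 fold change of -0.69 (SE 0.37, 95% interval -1.42 to 0.03). Erbb2, the receptor with no known ligand, had 2.58, 2.06, 1.82 and 1.93 CPM in control livers and 1.73, 1.48, 1.27 and 0.972 CPM in LKO livers. Every LKO mouse lay below every control mouse (log2 fold change -0.63, SE 0.27), a separation seen for 0.604% of all genes, on 18 to 44 counts per mouse.

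Hbegf at 0 h had 0.820, 0.853, 0.606 and 0.966 CPM in control livers and 0.760, 1.04, 1.10 and 1.19 CPM in LKO livers. The groups overlapped, and the log2 fold change was 0.33 (95% interval -0.29 to 0.94). Erbb3 (0.07, interval -0.43 to 0.58), Tgfa (-0.07, -0.31 to 0.16), Btc (0.13, -0.50 to 0.75) and Errfi1 (-0.25, -0.55 to 0.04) gave intervals that included 0 as well. Areg had 6 counts over the 4 control livers and 4 counts over the 4 LKO livers. Ereg, a ligand of EGFR and ERBB4, was at 0.453 ± 0.333 CPM in control and 0.511 ± 0.355 CPM in LKO livers (SD, n = 4 each).

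The LKO effect minus the HKO effect at 0 h was tested for 7 members, of which 0 were called, as were 0 of 12945 genes (0%, while 579 had an unadjusted p-value below 0.05 and DESeq2 called 19). The differences ran from -0.88 for Hbegf to 0.01 for Errfi1 on the log2 scale, with adjusted p-values of 1.00. The cohorts also differ in virus and in the age at deletion, and by the paper only the LKO deletion changes hepatocyte ploidy. These cannot be told apart here.

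**Figure D1:**
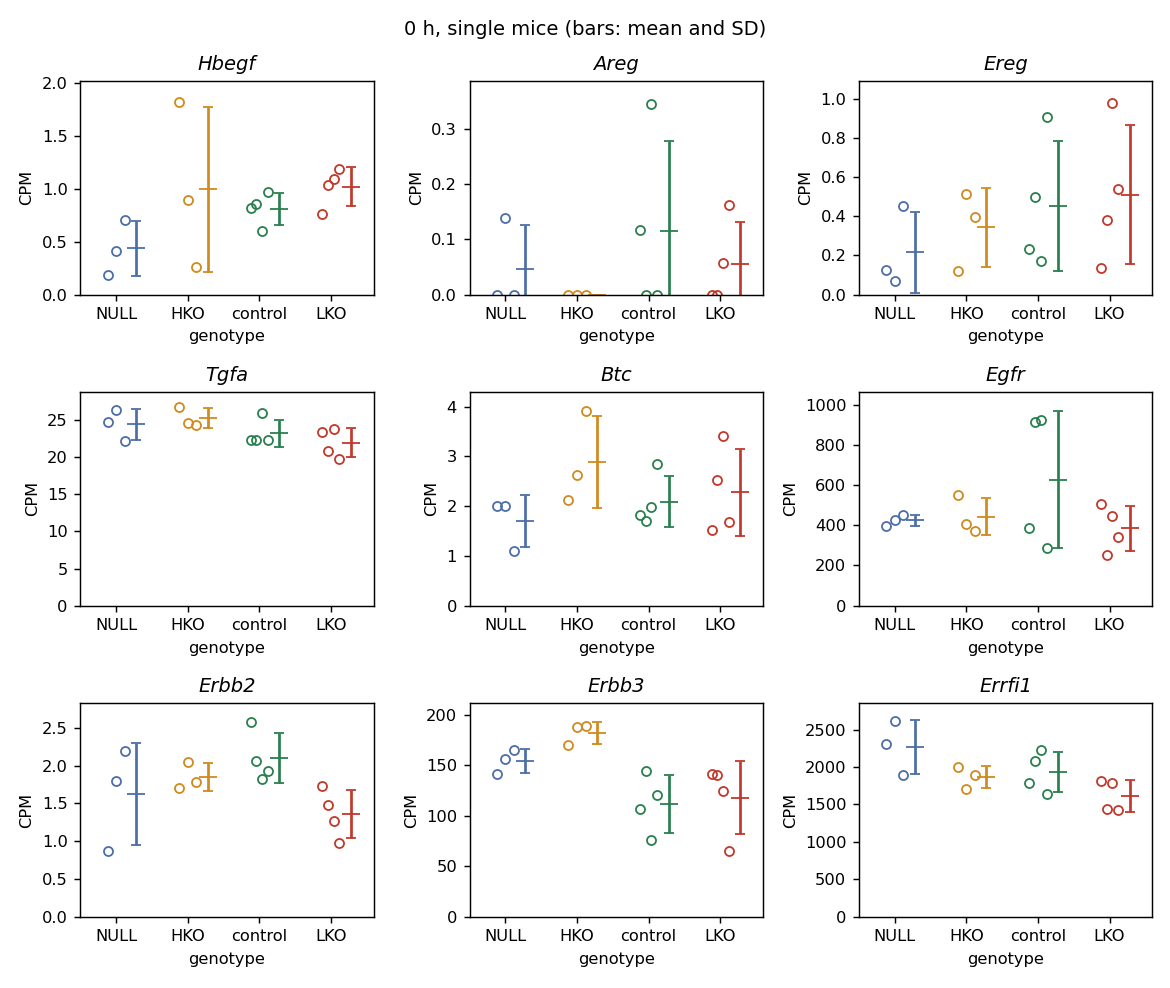
Level of each gene at 0 h in CPM (vertical axes from 0) for single NULL, HKO, control and LKO mice (open circles), with the mean and SD beside them. A pair of control mice stood above 900 CPM for Egfr, all 4 LKO mice lay below the control mice for Erbb2, and all 3 HKO mice lay above the NULL mice for Btc and Erbb3.

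Next, each time after APAP was compared with 0 h in the 18 libraries of the LKO cohort, with genotype and time as additive terms, so that the control and LKO pools of a time point served as its 2 libraries. Averaged over the genotypes, Hbegf, Areg and Btc rose early, Erbb3 fell at 24 and 48 h and Errfi1 fell at 72 h. Ereg, Tgfa, Egfr and Erbb2 were not called at any time. The levels of each genotype are given gene by gene below. At 12 h, 3 members were called higher and 0 lower, against 16.7% of 13855 genes called higher and 14.3% lower (31% in all). At 24 h, 3 were called higher and 1 lower (13.9% and 11.7% of all genes, 25.6% together), and at 48 h, 2 and 1 (9.89% and 6.52%, 16.4% together). At 72 h, 0 were called higher and 1 lower (11% and 5.77%, 16.8% together), and at 96 h 0 members were called against 0.462% of genes (0.332% higher and 0.13% lower), while 2 members had an unadjusted p-value below 0.05 and DESeq2 called 0. Scaling by library size alone moved the balance of calls over all genes, from 1928 higher and 1621 lower to 2509 and 1116 at 24 h, from 1370 and 904 to 2201 and 496 at 48 h, and from 1527 and 800 to 1738 and 415 at 72 h. Under that scaling Hbegf at 48 h was called (adjusted p = 0.028), Erbb3 at 48 h was not (0.0807), and Tgfa at 48 h was (0.0412).

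Areg, which encodes amphiregulin, had the largest fold change among the members at 12 h. It went from 0, 0, 0.117 and 0.346 CPM in control mice at 0 h to 24.5 CPM in the control pool at 12 h, and then to 2.04, 2.27, 0.131 and 0.140 CPM at 24, 48, 72 and 96 h. In LKO livers it went from 0, 0, 0.0577 and 0.162 CPM to 1.42, 0.515, 0.225, 0 and 0 CPM at the same times. Both genotypes were highest at 12 h and back within the range of the mice at 0 h by 72 h. The log2 fold change from 0 h was 6.69 at 12 h (SE 0.66, adjusted p = 3.3e-06), 3.93 at 24 h (adjusted p = 0.0017) and 3.58 at 48 h (adjusted p = 0.00512). Areg passed the filter on low counts through the pools in which it was high, since no mouse at 0 h had more than 4 counts, so its count among the calls is no support in itself. With no filter beyond 1 count, the 3 adjusted p-values were 4.79e-07, 0.00098 and 0.00346. As counts, the control pool at 12 h had 370 reads against 6 summed over 4 mice, a ratio of 242 in CPM (95% counting interval 110 to 664). The LKO pool had 24 against 4, a ratio of 24.3 (8.35 to 96.4). These intervals cover counting error only.

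Hbegf (chr18:36504927-36515805, minus strand) went from 0.606 to 0.966 CPM in control mice to 63.0, 9.43, 7.27, 4.33 and 1.54 CPM at 12, 24, 48, 72 and 96 h. All 5 control pools lay above all 4 control mice at 0 h, and the level was highest at 12 h. In LKO livers it went from 0.760 to 1.19 CPM to 2.84, 3.50, 1.52, 0.611 and 0.646 CPM, so that 3 pools lay above the mice at 0 h and 2 below. The log2 fold change from 0 h was 4.48 at 12 h (SE 0.60, adjusted p = 5.2e-05) and 2.54 at 24 h (SE 0.60, adjusted p = 0.00488). At 48 h it was 1.84 (SE 0.63, adjusted p = 0.0514) and did not pass. It passed with no filter on low counts (adjusted p = 0.0453) and without LKO mouse 2, 3 or 4 (0.0388 to 0.0458). In control livers alone the log2 fold change at 12 and 24 h was 6.25 and 3.50, and in LKO livers alone 1.47 and 1.76.

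Btc went from 1.71 to 2.84 CPM in control mice to 22.6, 7.87, 10.8, 5.38 and 1.19 CPM, highest at 12 h. In LKO livers it went from 1.52 to 3.41 CPM to 6.80, 11.7, 4.60, 2.82 and 4.09 CPM, highest at 24 h. Its log2 fold changes from 0 h were 2.70 at 12 h (SE 0.42, adjusted p = 0.00019), 2.17 at 24 h (SE 0.42, adjusted p = 0.00151) and 1.78 at 48 h (SE 0.44, adjusted p = 0.0102). In control livers alone these values were 3.43, 1.90 and 2.37, and in LKO livers alone 1.58, 2.35 and 1.02. Each genotype has 1 pool per time, and whether the genotypes differed in their rise was not tested.

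Tgfa, which encodes transforming growth factor alpha, was detected at 15.3 to 43.3 CPM in the pools. Its control pools had 24.9, 33.6, 43.3, 32.6 and 15.3 CPM against 22.3 to 25.9 CPM at 0 h, and its LKO pools 21.2, 28.8, 20.6, 18.0 and 18.3 CPM against 19.8 to 23.8 CPM. The control pools at 24, 48 and 72 h lay above all control mice at 0 h, but the shared log2 fold changes, 0.46 at 24 h and 0.46 at 48 h (adjusted p = 0.097 and 0.124), did not pass. Ereg stayed at 0.337 to 2.07 CPM, on 6 to 41 counts per pool, and its largest log2 fold change was 1.31 at 12 h (SE 0.64, adjusted p = 0.122).

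Among the receptors, only Erbb3 was called. Its control pools had 30.7, 17.1, 41.0, 28.1 and 32.4 CPM, all 5 below the 75.5 to 144 CPM of control mice at 0 h. Its LKO pools had 117, 26.6, 53.1, 85.5 and 106 CPM, of which those at 24 and 48 h lay below the 64.7 to 141 CPM of LKO mice at 0 h. The log2 fold change from 0 h was -2.46 at 24 h (SE 0.46, adjusted p = 0.00117) and -1.32 at 48 h (SE 0.42, adjusted p = 0.0401). The call at 48 h was lost without control mouse 1, 2 or 4 (adjusted p of 0.0564 to 0.0591). At 72 h the log2 fold change was -1.18 (adjusted p = 0.0608), and it was called without LKO mouse 4 (adjusted p = 0.0194) and with DESeq2 (adjusted p = 0.0174). At 12 h it was not called, but it was without LKO mouse 4 (-0.99, adjusted p = 0.0444). The log2 fold change at 12 h was -1.87 in control livers alone and 0.011 in LKO livers alone, and at 48 h -1.45 and -1.13.

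Egfr had 355, 177, 227, 332 and 400 CPM in control pools and 428, 292, 359, 281 and 327 CPM in LKO pools. The control pools at 24 and 48 h lay below all control mice at 0 h, whereas all LKO pools lay within the range of the LKO mice at 0 h (253 to 503 CPM). The log2 fold change at 24 h was -1.07 (SE 0.44, adjusted p = 0.0834). It was called without LKO mouse 2 (-1.18, adjusted p = 0.0487) and with DESeq2 (adjusted p = 0.0283). Erbb2 was at 0.862 to 2.49 CPM in the pools, and its log2 fold changes lay between -0.28 and 0.41. Errfi1 had 2345, 1638, 1255, 843 and 1106 CPM in control pools and 1874, 1328, 1365, 1252 and 1201 CPM in LKO pools. In both genotypes it was highest at 12 h and, from 48 h on, below all mice of that genotype at 0 h. Its log2 fold change was -0.74 at 72 h (SE 0.21, adjusted p = 0.0228). At that time it was -1.18 in control livers alone and -0.36 in LKO livers alone.

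**Figure D2:**
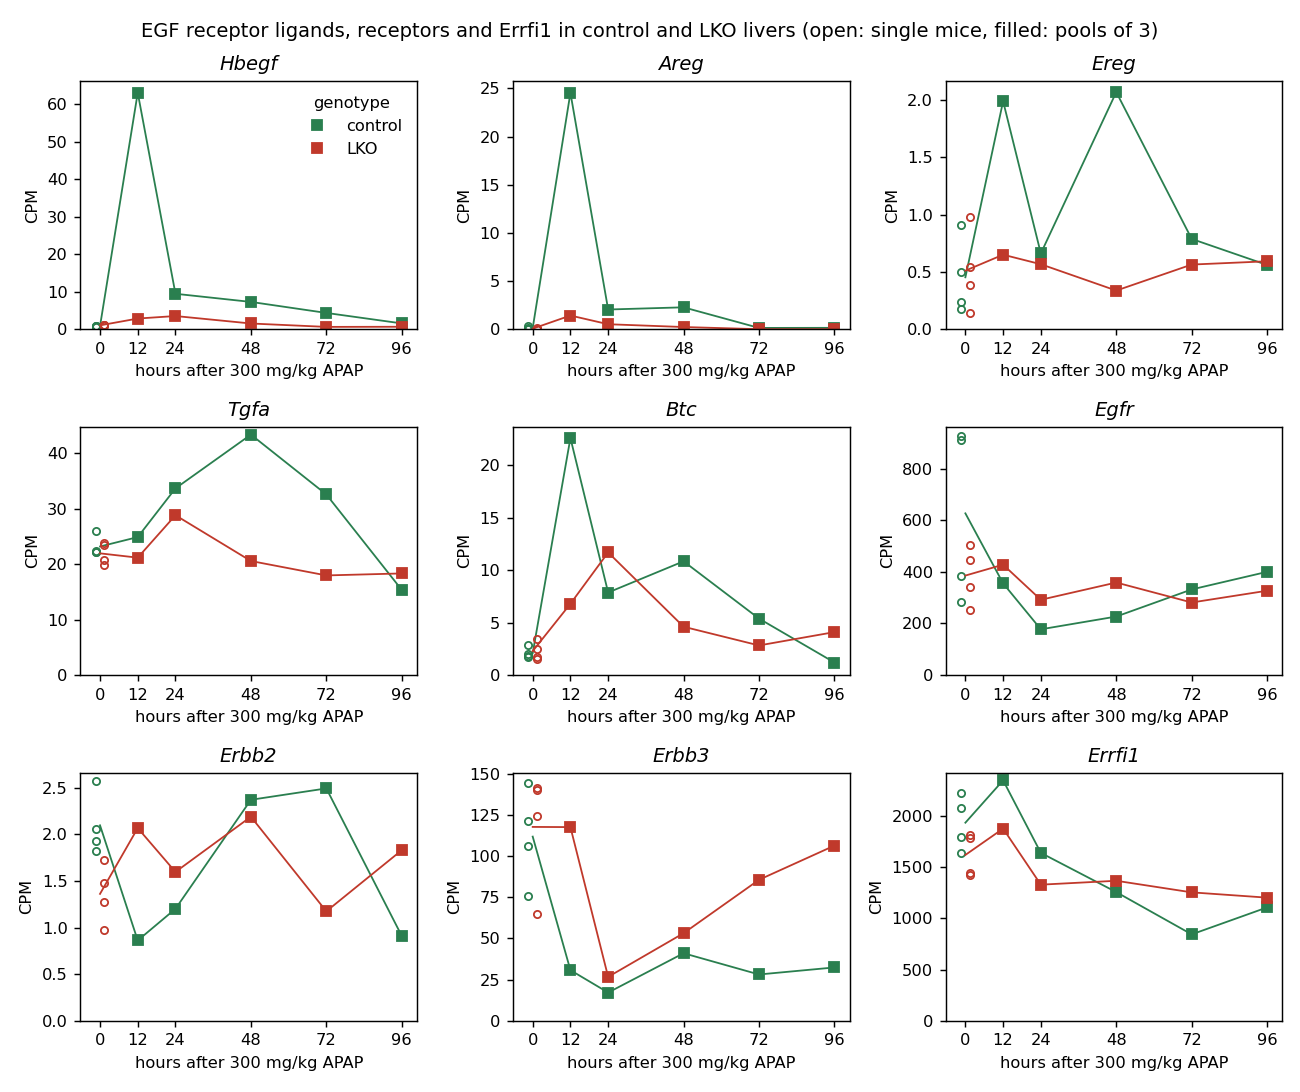
Level of each gene in CPM (vertical axes from 0) against hours after APAP for control (green) and LKO (red) livers, with open circles for single mice at 0 h, filled squares for pools of 3 mice and lines from the mean at 0 h. Hbegf and Areg reached 63.0 and 24.5 CPM in the control pool at 12 h against 2.84 and 1.42 CPM in the LKO pool, and Erbb3 was lower in every control pool than in the LKO pool.

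**Figure D3:**
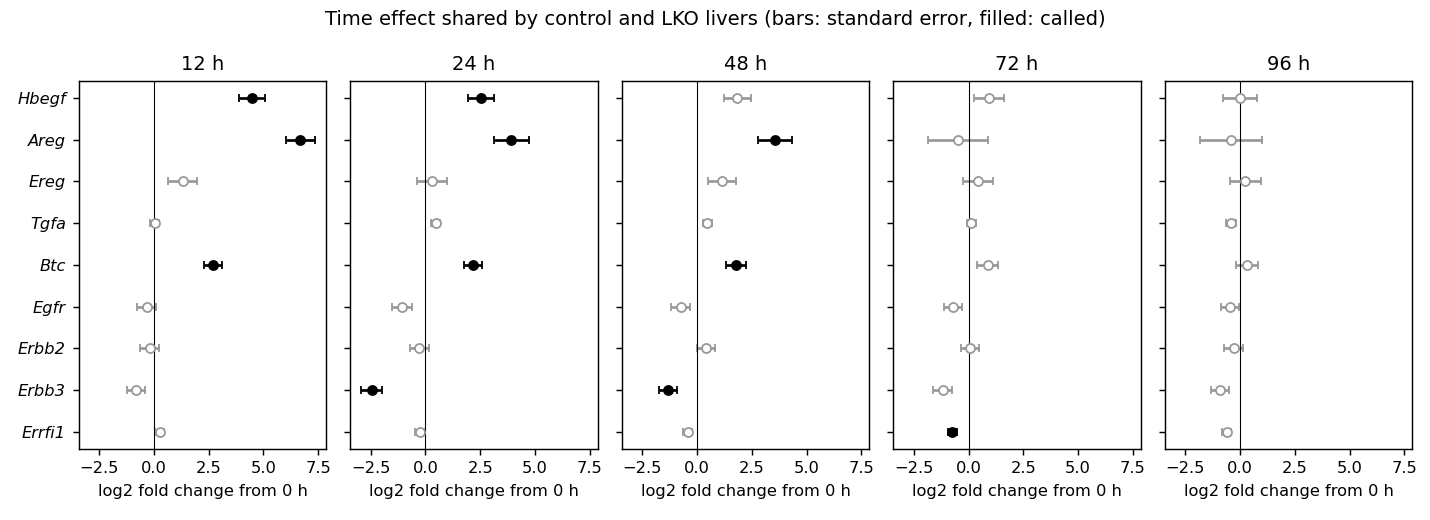
Log2 fold change from 0 h (horizontal axis) with its standard error for the 9 genes at each time after APAP, fitted over control and LKO livers together, with filled black points for called changes. Hbegf, Areg and Btc were called higher at 12 and 24 h, Areg and Btc at 48 h, Erbb3 lower at 24 and 48 h and Errfi1 lower at 72 h, and Areg entered the fit through the pools in which it was high.

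Of 51 other genes of the pathway, 47 passed the filter in this comparison. At 12 h, 17 were called higher and 4 lower, beside 16.7% and 14.3% of all genes, with a median log2 fold change of 0.43 against -0.01 over all genes. At 24 h the counts were 8 and 5 (13.9% and 11.7% of all genes), at 48 h 4 and 3 (9.89% and 6.52%), at 72 h 2 and 5 (11% and 5.77%), and at 96 h 0 and 0 (0.332% and 0.13%), with medians between -0.18 and -0.04. From 24 h on, the counts thus lay nearer to the shares over all genes than the higher calls at 12 h did. They include Nrg1 at 12, 24 and 48 h and Adam12 at 12, 48 and 72 h. Both genes passed the filter through the pools, so the counts are no support in themselves. At 0 h, 0 of 44 pathway genes tested were called in HKO or in LKO livers.

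Among the other ligands, Nrg1, which encodes a neuregulin that binds ERBB3 and ERBB4, had 0 to 6 counts in the 8 mice at 0 h and passed the filter through the pools. It was at 9.08, 7.45 and 6.21 CPM in control pools and 1.42, 4.02 and 0.562 CPM in LKO pools at 12, 24 and 48 h, against at most 0.346 CPM in a mouse at 0 h. It was called at these 3 times with the filter and with no filter beyond 1 count (adjusted p = 9.21e-05, 4.08e-05 and 0.00141 without it). Nrg4, a neuregulin that binds ERBB4, showed rises of 2.31, 1.94 and 1.26 at 12, 24 and 72 h (adjusted p = 0.000437, 0.00249 and 0.0428), and Egf rose by 1.85 at 12 h (adjusted p = 0.0092). Of the 6 other ligands listed, 3 were too low to test, so no count over the list is given. Nrg3 had 0 counts in all 24 libraries and Epgn in 22.

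Of 7 ligand-shedding genes tested, 3 were called higher and 1, Adam12, lower at 12 h (16.7% and 14.3% of all genes). Rhbdf2 and Rhbdf1, the iRhoms that carry the sheddase ADAM17 to the surface, rose by 2.71 and 1.79 on the log2 scale, and Timp3, an inhibitor of that protease, rose by 1.48. These 3 were called at 24 h as well, with 1.31, 0.99 and 0.72. Adam12, another sheddase, had 3 to 8 counts in each of the 8 mice at 0 h. It passed the filter through the late pools, so its place among the calls is no support in itself. It had 1 and 0 counts in the control and LKO pools at 12 h, 82 and 33 at 48 h and 110 and 30 at 72 h, and it was called lower at 12 h and higher at 48 and 72 h, with no filter as well (adjusted p = 0.0196, 0.000172 and 2.33e-05). Among 13 brakes on the receptor or the cascade, 7 were called higher and 2 lower at 12 h, beside the same shares of all genes. The largest of these changes were in Spry2 (1.91), Spry1 (1.504), the ERK phosphatase gene Dusp6 (1.49) and Spred2 (1.16), and Lrig1 (1.07), Rnf41 (0.69) and Lrig2 (0.66) were the other higher ones. Spry2 was called at 24 h too (1.54). Spry4 fell by 0.90, 1.27, 1.80 and 1.76 at 12, 24, 48 and 72 h, opposite to Spry1 and Spry2 at 12 h, and Cblc, a ubiquitin ligase gene of the CBL family, fell by 0.77, 1.14, 0.84 and 0.82 at the same times.

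Some genes of the signalling arms were called as well. Of 7 adaptors, 10 RAS-ERK genes and 6 PI3K-AKT genes, 2, 1 and 1 were called higher at 12 h and 0, 1 and 0 lower. Over all genes, 16.7% were called higher and 14.3% lower at that time. At 24, 48 and 72 h, 13.9%, 9.89% and 11% of all genes were called higher and 11.7%, 6.52% and 5.77% lower. Nothing is read from the number of these calls. Of the adaptors, Sos2 (1.09) and Ptpn11 (0.78) were called higher at 12 h, Plcg1 (-0.93) and Sos1 (-0.88) lower at 24 h, and Plcg1 (-0.75) lower at 72 h. In the RAS-ERK cascade, Braf (0.82) was called higher and Mapk3 (-0.77) lower at 12 h, and Nras (0.94 at 24 h and 0.74 at 48 h) higher. Araf was called lower at 24 and 72 h (-0.61 and -0.63) and Map2k2 at 72 h (-0.63). In the PI3K-AKT arm, Pik3cb (0.97) was called at 12 h and Akt2 (-0.68) at 48 h, and the other 4 genes at no time.

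LKO pools were then set beside control pools. Hbegf was lower in the LKO pool at all 5 times, with log2 ratios of LKO to control of -4.42, -1.40, -2.17, -2.60 and -1.11 at 12, 24, 48, 72 and 96 h. The counts behind them were 48 against 950, 68 against 157, 27 against 144, 13 against 66 and 12 against 22. At 12 h the control level was thus 22.2 times the LKO level, with 1 pool each. The lower Hbegf of LKO livers was known when the genes were chosen. Without the 12 h pools the mean log2 ratio was -1.82, against -2.34 over all 5 times.

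Areg was lower in the LKO pools at 12, 24 and 48 h, on 24 against 370, 10 against 34 and 4 against 45 counts, or 17.3, 3.96 and 10.1 times in CPM. At 72 and 96 h there were 2 counts in each control pool and 0 in each LKO pool, under the 3-count limit. Hbegf and Areg were the members below the control pool at every time, as were 8.18% of all genes. Ereg was lower at 12 h (11 against 30 counts) and 48 h (6 against 41 counts), with 11 against 11, 12 against 12 and 11 against 8 counts at 24, 72 and 96 h. Tgfa was lower in LKO pools at 12 to 72 h, with log2 ratios of -0.23, -0.22, -1.07 and -0.85, and at 96 h it was 0.25. Btc was lower at 12, 48 and 72 h (-1.72, -1.21 and -0.90) and higher at 24 and 96 h (0.56 and 1.68).

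Erbb3 exceeded the control pool in LKO livers at each of the 5 times, as did 8.34% of genes, with log2 ratios of 1.93, 0.63, 0.37, 1.60 and 1.71. Egfr was higher at 12, 24 and 48 h (0.27, 0.72 and 0.66) and lower at 72 and 96 h (-0.24 and -0.29). Erbb2 ratios ran from -1.01 to 1.16, on 13 to 47 counts per pool, and Errfi1 ratios from -0.32 to 0.57. In numbers, 4, 2, 5, 3 and 2 members were at least 2-fold lower in the LKO pool at the 5 times, against 12.4%, 4.85%, 9.76%, 6.99% and 4.67% of genes. These counts include Hbegf at every time and, at 72 and 96 h, Areg on 0 against 2 counts, so nothing is read from them. In the other direction, 2, 0, 0, 1 and 2 members were at least 2-fold higher, against 9.03%, 3.37%, 7.1%, 6.52% and 6.48% of genes. Each ratio compares 1 library with 1 library, so no spread between pools of 1 time can be given.

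**Figure D4:**
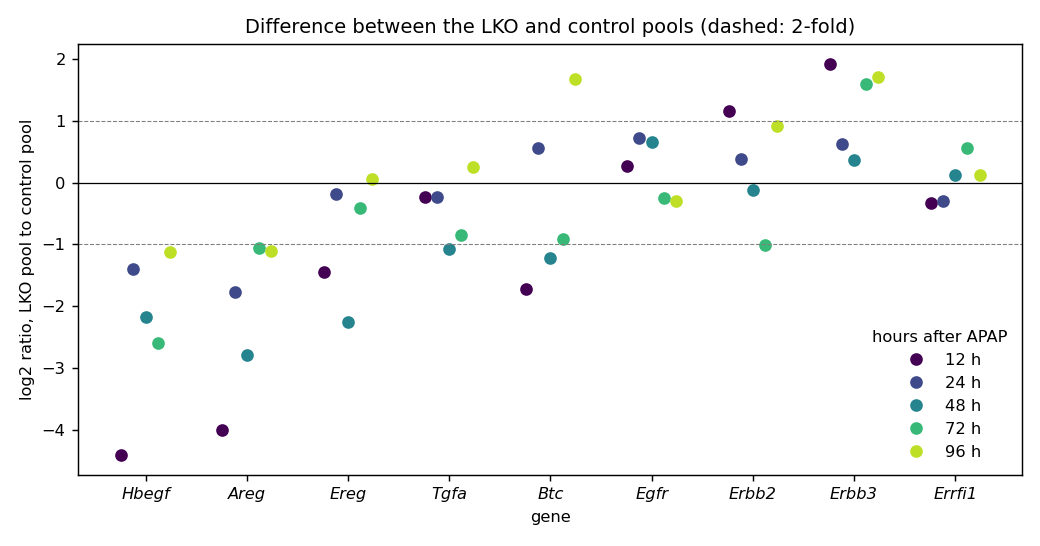
Log2 ratio of the LKO pool to the control pool (vertical axis) for each gene and time after APAP, with dashed lines at 2-fold. Hbegf lies between -4.42 and -1.11 and Erbb3 between 0.37 and 1.93, while Btc runs from -1.72 to 1.68; the Areg points at 72 and 96 h rest on 2 and 0 counts.

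Markers of other liver cells moved with these ratios at some times. All 5 cholangiocyte markers were higher in the control than in the LKO pool at 12 h and at 48 h. Their summed levels were 172 against 36.0 CPM and 216 against 86.5 CPM. At 24, 72 and 96 h, 2, 4 and 3 of the 5 were higher in the control pool. At 12 h Sox9 was at 125 against 19.8 CPM, Spp1 at 38.1 against 13.8 CPM, Epcam at 5.24 against 0.591 CPM, Krt19 at 2.06 against 1.89 CPM and Krt7 at 1.46 against 0 CPM. At 48 h Spp1 was at 191 against 73.8 CPM, so Sox9 and Spp1 made up most of these sums. The range of the sum was 37.5 to 77.3 CPM in control mice and 39.2 to 66.8 CPM in LKO mice at 0 h. The sums for 6 neutrophil and monocyte markers were 12.1, 14.5, 29.6, 32.3 and 9.32 CPM in control pools and 10.9, 30.4, 14.1, 11.3 and 4.58 CPM in LKO pools at 12, 24, 48, 72 and 96 h. The control pool had the higher sum at every time but 24 h, with 3, 1, 3, 5 and 5 of the 6 markers higher. The sums for 8 Kupffer cell and macrophage markers were 135, 133, 227, 703 and 395 CPM in control pools and 122, 145, 279, 706 and 158 CPM in LKO pools, with 6, 2, 2, 3 and 8 markers higher in the control pool. Among the neutrophil and monocyte markers, Mpo was at 0 in 17 of 24 libraries. Hepatocyte marker sums at 12 h were 101108 and 60852 CPM, with 4 of 6 markers higher in the control pool. The part of any of these cells in the differences of Hbegf, Areg, Btc, Ereg and Erbb3 was not tested.

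Over time, the shares of all genes called higher were 16.7%, 13.9%, 9.89%, 11% and 0.332% at 12, 24, 48, 72 and 96 h, and those called lower 14.3%, 11.7%, 6.52%, 5.77% and 0.13%. Beside these, neutrophil and monocyte markers were called higher in 2, 5, 4, 2 and 1 of 5 tested and lower in 0 at each time. Only 3 of this list passed the filter among control and LKO mice at 0 h. Others entered through the pools, so the count is no support in itself. Kupffer cell and macrophage markers were called higher in 2, 3, 4, 4 and 2 of 8 and lower in 1, 3, 0, 0 and 0. Of these 8, 7 passed the filter among the same mice at 0 h, so this count too includes a marker that entered through the pools. Stellate cell and fibroblast markers were called higher in 0, 2, 3, 6 and 1 of 7 and lower in 3, 2, 0, 0 and 0. The summed levels of the Kupffer cell and macrophage list and of the stellate cell and fibroblast list (974 CPM in control and 735 CPM in LKO) were highest at 72 h. At 72 h Hbegf, Areg and Btc were past their highest levels in both genotypes. Hepatocyte markers were called higher in 0, 1, 0, 0 and 0 of 6 and lower in 1, 3, 2, 1 and 0, and endothelial markers higher in 2, 1, 1, 0 and 0 of 6 and lower in 1, 2, 2, 2 and 0. Cholangiocyte markers were called higher in 1, 1, 2, 0 and 0 of 5 and lower in 0, 0, 1, 1 and 0, and 0 of 5 lymphocyte markers were called at any time. At 0 h, 0 markers of any list were called in HKO or LKO livers. The part of these cells in the time course was not tested.

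Genes whose log2 CPM ran most like Hbegf over the 18 libraries of the LKO cohort, out of 13855, were Myl12a (Pearson r = 0.956), Rassf1 (0.947), Vdr (0.946), Phc2 (0.943) and D10Wsu102e (0.942). Areg (0.917) and Btc (0.843) were not among the closest 5, and Vdr moved to rank 15 with a prior count of 0.5. Myl12a had 51.5 to 62.7 CPM in control mice at 0 h and 328 CPM in the control pool at 12 h. Vdr stayed at or under 1.53 CPM. For Egfr they were Aadat (0.912), Ugt2b38 (0.894), Zfp445 (0.884), Cyp7b1 (0.883) and C6 (0.880). These libraries share mice of 1 cohort, and the control pool at 12 h weighs on the values for Hbegf. Over the 10 pools alone, 1 of the 5 genes for Hbegf and 0 of the 5 for Egfr remained among the closest 5.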

How the data were processed

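Liver RNA of 24 libraries was compared. Trimmomatic (trimming) and STAR (alignment to mm10, gene counting) were run by the authors, who deposited raw counts in 1 column that disregards strand and 2 stranded columns. The first was used. The annotation version is not given in the sources used here. Entries that name no gene (18.7% to 39.9% of reads and, among them, 7.29% to 14.7% on no feature) were left out. The labels and the methods differ on the route of the virus and on 3 or 4 mice per group in the HKO cohort, for which 3 libraries each were analysed.

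Counts were fitted in R 4.3.3 with edgeR 4.0.16 (filterByExpr, TMM, quasi-likelihood F-test) over all genes of each comparison, with Benjamini-Hochberg adjustment. All tests were 2-sided. Calls needed an adjusted p-value below 0.05 together with a fold of 1.5 or more. Fits at 0 h held the 2 groups compared (all 4 for the difference between effects), and the APAP fit held 18 libraries, with the spread taken from all of them. Log2 CPM used a prior count of 2, and pool ratios are on that scale. Counting intervals are exact 95% intervals and cover counting error only. DESeq2 1.42.0, RLE scaling, library size alone, no filter, a stranded column and leaving out each mouse were alternatives. The code of the fits was run on simulated counts with known changes, and no support for the calls is drawn from this. Whether the labels' replicate numbers pair mice was checked by correlating deviations from group means.

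The members, gene lists and rules were chosen with earlier results of these data known. All 9 members were named in every comparison, with called pathway genes by size of change (up to 4 per group, and the 5 further calls among the brakes at 12 h), and 7 marker lists as counts and sums. Ly6g was not analysed here, and 1 called pathway gene is not reported here. Symbols were matched to GENCODE vM21 on GRCm38 (95.8%). Replicates at 0 h are single mice, and pools are single libraries.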

Additional observations from a re-analysis of the deposited data

Results flagged for a closer look

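Tgfa in control mouse 3 at 0 h stood apart from the other 3 control mice, at 25.9 CPM against 22.3, 22.3 and 22.3 CPM. Its gap to the nearest mouse was 0.99 of the range of the group, above Dixon's 95% limit for a group of 4. That library had 12665686 reads on genes, the fewest of the 24, and 20.6% of its reads were unmapped. Chance marks about 1 in 20 groups in this way.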

How the results depend on the processing

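The total number of called members per comparison stayed within 1.5 times of the reported one under RLE scaling, library size alone, no filter on low counts and no fold limit, but by library size the members called at 48 h were 4 higher and 0 lower, against 2 and 1. At 72 h after APAP, 1 member was called, against 2 with DESeq2 and 1 to 2 when each mouse was left out (2 without LKO mouse 4). In control livers alone 5 members were called at 48 h and 4 at 72 h (1881 and 1764 of 14023 genes), and in LKO livers alone 1, 2, 0 and 0 at 12, 24, 48 and 72 h. These fits hold 1 pool per time, which is assumed to vary like the mice at 0 h, so their calls are not set against each other. The number of members below the control pool at every time was 2, but 1 with a stranded column (Hbegf) and 2 to 4 when a time was left out (4 without 96 h, with Ereg and Tgfa). The cause of these changes was not tested, apart from the smaller number of libraries in fits of 1 genotype.

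Directions that turned were all of changes that were not called. Hbegf at 96 h turned to -0.021 with DESeq2, -0.025 by library size, -0.26 with a stranded column and -0.67 in LKO livers alone, and Hbegf at 72 h to -0.74 in LKO livers alone. In LKO livers alone Egfr at 12 h was 0.16, Erbb3 at 12 h 0.011, Ereg at 48 h -0.59, Tgfa -0.040, -0.080 and -0.28 at 12, 48 and 72 h, and Erbb2 0.62, 0.23, -0.20 and 0.42 at 12, 24, 72 and 96 h. In control livers alone Areg at 72 and 96 h was 0.34 and 0.42 and Btc at 96 h -0.81. With a stranded column Ereg at 24 h was -0.15, and in LKO livers at 0 h Tgfa was 0.032 and Btc -0.22; Tgfa there was 0.057 by library size. Leaving out each mouse gave -0.10 to 0.48 for Erbb2, -0.0070 to 0.12 for Tgfa and -0.11 to 0.18 for Egfr in HKO livers, -0.072 to 0.28 for Erbb3 and -0.12 to 0.32 for Btc in LKO livers at 0 h, -0.87 to 0.029 and -0.78 to 0.12 for Areg at 72 and 96 h, -0.014 to 0.18 for Erbb2 at 72 h and -0.16 to 0.19 for Hbegf at 96 h.

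Over all genes, calls in HKO livers numbered 324 with DESeq2, 255 without the filter and 54 to 297 when a mouse was left out, against 119. By library size they split into 76 higher and 58 lower, against 52 and 67. Calls at 96 h numbered 338 with DESeq2, 41 by library size, 28 with a stranded column, 10 in either genotype alone and as few as 18 without LKO mouse 3, against 64. Library size alone moved the median log2 ratio of all genes between pools by up to 0.21, at 96 h. In LKO livers alone 1414, 1062, 280 and 375 genes were called at 12, 24, 48 and 72 h, and in control livers alone 1748 at 24 h.

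Same-numbered HKO and NULL mice had correlations of 0.20, -0.03 and 0.10, and LKO and control mice -0.38, -0.19, 0.10 and 0.22, so the numbers did not pair the mice. With the replicate block, 0 members were called in either comparison, and 264 genes in HKO livers. LKO and control pools pair by time, and their ratios are given time by time without a test, since the members were chosen with this difference known. Members with few counts (Areg, Ereg, Erbb2 and Hbegf at 0 h) were limited by depth.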
